A study of Homo sapiens with 6 samples.

Results

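The genes for collagens, laminins and the other parts of the basement membrane, together with fibronectin, SPARC and the enzymes that modify and cross-link collagen, were examined in OVCAR8 cells treated with a splicing inhibitor. The members were chosen by symbol alone: every collagen chain, laminin chain, nidogen, perlecan (HSPG2), agrin (AGRN), FN1, SPARC, the lysyl oxidases, the lysyl hydroxylases (PLOD genes) and the catalytic subunits of prolyl 4-hydroxylase (P4HA genes). This gave 73 of the 38637 genes in the table, and the 49 with a mean of 20 or more over the 6 samples were compared between the groups. The mean was 22.5 for COL5A2, just inside that limit, and 16.8 for COL8A2, just outside it. OVCAR8 is an established human ovarian cancer line, given as wild type, and every sample came from this 1 line. Polyadenylated RNA was sequenced after 72 h with the solvent DMSO (3 samples) or with 2 nM pladienolide B (3 samples), a macrolide that inhibits the splicing factor SF3B1. The labels do not say whether the samples of a group were separate cultures, so the p-values measure the spread between these samples, which may be technical. In bulk RNA, fewer cells of a type and less RNA per cell cannot be told apart.

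The values are reads per gene that the authors had adjusted to a common library size, called adjusted reads below. Between 22621338 and 26130882 reads lay on genes in each library. The chi-square per degree of freedom between replicates, which is 1 for counting noise alone, was 1.98 between DMSO replicates 1 and 3 but 6.88 and 6.79 between DMSO replicate 2 and those, and from 3.05 to 4.56 between the pladienolide B replicates. No library repeated another, and DMSO replicate 2 stood apart within its group. SF3B1 itself rose (log2 fold change 0.31 ± 0.04, adjusted p = 7.5e-06). Of the 12 ovarian and epithelial markers, PAX8 and the keratin KRT8 were among the abundant ones. PAX8 held 4153, 4011 and 4162 adjusted reads in DMSO and 4280, 4581 and 4161 in pladienolide B. KRT8 held 40092, 43907 and 40376 adjusted reads in DMSO and 51405, 45248 and 53035 in pladienolide B. The ovarian markers WT1 and MUC16 reached only 33.8 and 22.8 adjusted reads, and KRT19 and SOX17 only 24.8 and 12.8. Of the 11 markers tested, CDH1, KRT8, KRT18 and FOLR1 were higher (36.4%) and MSLN and KRT7 lower (18.2%). Of all tested genes, 22.4% were higher and 25.2% lower. Of the 12 fibroblast markers, 6 were tested, of which MFAP5, COL1A1 and PDGFRB were lower and TCF21 was higher. Single libraries held 181 to 267 adjusted reads of PDGFRB and 96.8 to 138 of TCF21, at most 9.02 of PDGFRA and 2.07 of DCN, and none of DPT. The list, which COL1A1 and MFAP5 dominate, summed to a range of 10039 to 10543 in DMSO, and after treatment to 7265 to 7779. Of the 8 endothelial markers, 5 were tested and ESAM, the most abundant at 144 to 230.1 adjusted reads, was higher. PECAM1 held 24.1 to 42.1 and VWF 18.6 to 45.1, while CDH5 reached 4.24 and EMCN 0.96, and the list summed to 236 to 269 in DMSO and after treatment to 325 to 346. The 10 leukocyte markers, mostly CD68, summed to 1168 to 1338 and 1557 to 1650, with PTPRC at 2.00 at most and CD3E at 0 in every library. The part of these markers in the results was not tested.

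Basement membranes are thin sheets under epithelia, made of a laminin network and a collagen IV network that nidogens and heparan sulfate proteoglycans join. Each laminin is a trimer of an alpha, a beta and a gamma chain, and each collagen is a trimer of alpha chains, so a missing chain limits which trimers a cell can make. Collagen chains are hydroxylated on proline and lysine in the endoplasmic reticulum before they fold, and lysyl oxidases cross-link them after secretion. Ovarian carcinoma cells secrete matrix of their own, and they attach to and spread over the laminin, fibronectin and collagen of the peritoneum.

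Most of these genes had less RNA after pladienolide B. Of the 49 members, 30 were lower and 5 higher at an adjusted p below 0.05 (limma, Benjamini-Hochberg over all 16178 tested genes), and 14 did not pass. That is 61.2% lower and 10.2% higher, where 27.0% and 23.5% of the 14779 tested genes with a mean of 20 or more were called lower and higher. The calls of either direction covered 50.5% of these genes and 47.6% of all tested genes. A change of at least 1.5-fold was called for 18 members lower and 3 higher, or 36.7% lower, where the background was 6.83% lower and 4.22% higher. The median log2 fold change was -0.45 over the members and -0.0042 over all tested genes. A fall of at least 2-fold was found for P4HA1, COL6A2, FN1, HSPG2, AGRN, COL4A4 and LAMA5, 7 of 49 members, where 1.65% of the genes reached it. The values of the groups did not overlap in 37 members, lower in 31 and higher in 6, with a background of 30.5% and 27.3%. Without DMSO replicate 2, 31 members were lower and 6 higher.

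**Figure D1:**
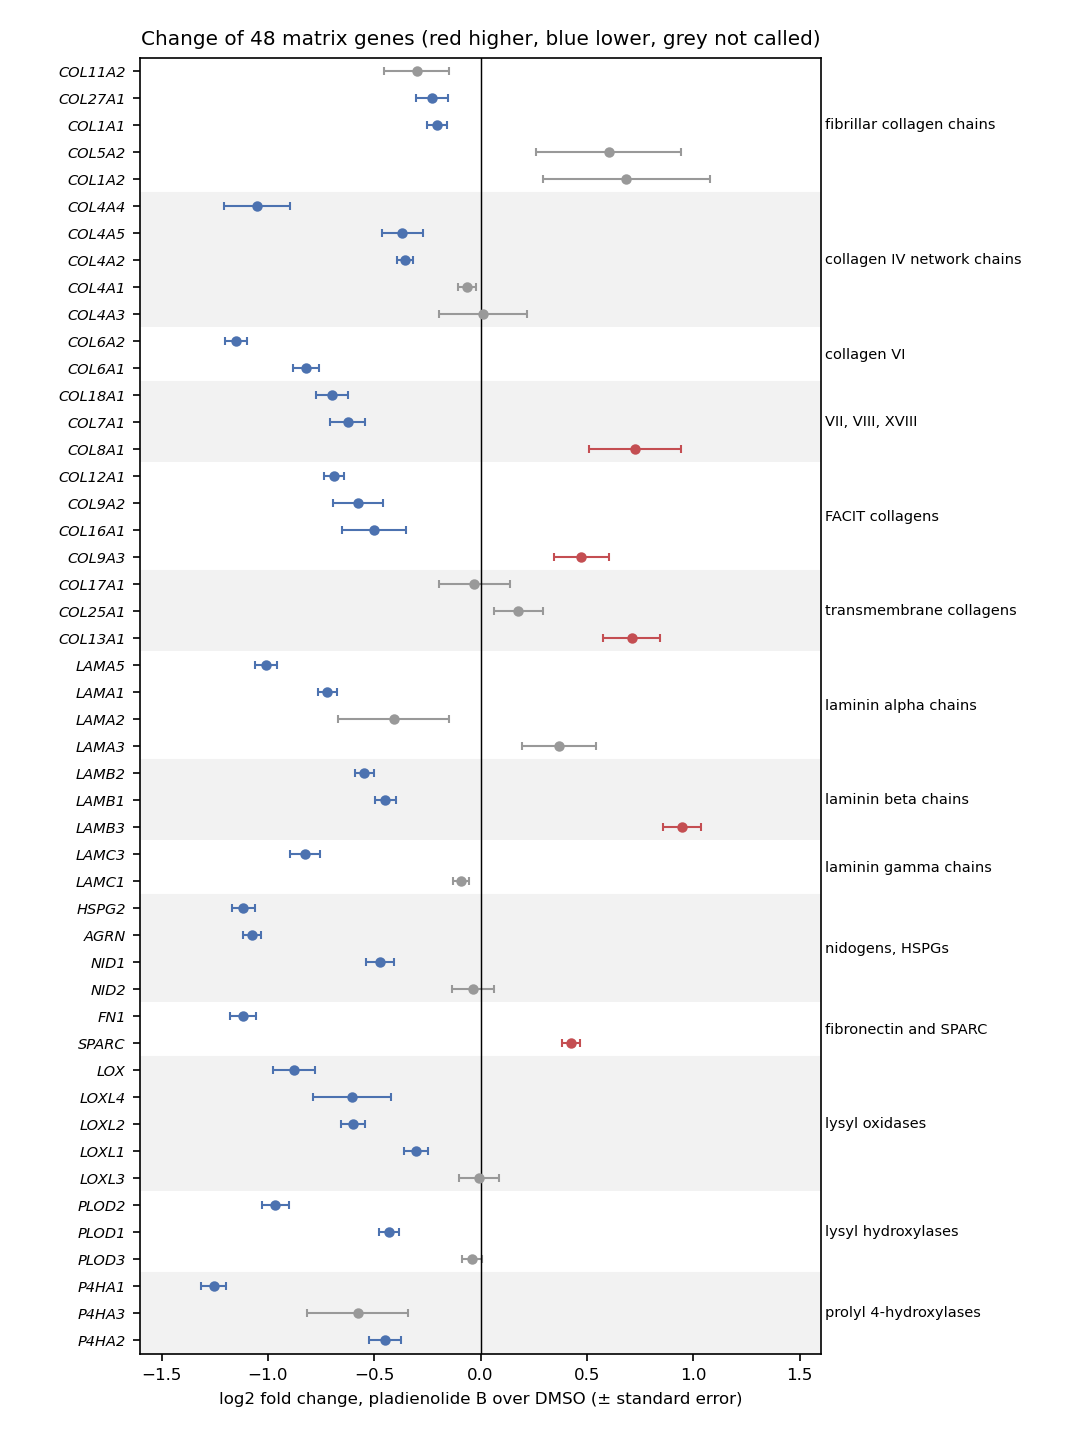
Change with pladienolide B relative to DMSO on a log2 scale (x axis, with standard error) for 48 of the 49 members, grouped by role; blue marks members called lower, red those called higher and grey those not called. Blue points lie between -1.26 (P4HA1) and -0.21 (COL1A1), and the 5 red points are LAMB3, COL8A1, COL13A1, COL9A3 and SPARC.

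The 2 genes of the main collagen IV network, COL4A1 and COL4A2, start next to each other on chromosome 13 and are transcribed in opposite directions. The files place COL4A1 at chr13:110148963-110307157 on the minus strand and COL4A2 at chr13:110307284-110513209 on the plus strand of hg38, so that 126 bases separate their starts. That shared segment is shown because the chains on its sides did not change alike. It was read from the plus strand at chr13:110307158-110307283 (hg38), and 80.2% of it is G or C. A CCAAT box, present on either strand in 36.6% of the 11386 RefSeq windows from 250 bases before to 50 bases after a gene start, is in capitals.
COL4A1-COL4A2: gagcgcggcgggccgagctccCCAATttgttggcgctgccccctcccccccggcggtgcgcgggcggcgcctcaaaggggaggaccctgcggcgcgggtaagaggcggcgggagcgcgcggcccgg

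Across this segment COL4A2 fell from 11368, 11006 and 10917 to 8385, 8783 and 8852 adjusted reads (log2 fold change -0.36 ± 0.04, adjusted p = 1.5e-06, where ± is the standard error). COL4A1 read 4095, 3999 and 3979 adjusted reads in DMSO and 3811, 3984 and 3761 in pladienolide B, and its groups overlapped (log2 fold change -0.063 ± 0.042, adjusted p = 0.23). The ratio of COL4A2 to COL4A1 reads was 2.78, 2.75 and 2.74 in the DMSO samples and 2.2, 2.2 and 2.35 in the pladienolide B samples. The ratio was thus lower in every treated sample, with an exact permutation p of 0.1, two-sided, which is the smallest that 3 samples against 3 can give.

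The other collagen IV chains form networks in kidney, lung and some other basement membranes. COL4A4 fell 2.07-fold, from 214, 186 and 273 to 88.9, 106 and 127 adjusted reads (log2 fold change -1.05 ± 0.16, adjusted p = 3.5e-05), with the 3 treated samples all below the lowest DMSO sample. Its neighbour COL4A3, which starts 106 bases away on chromosome 2 and is read in the other direction, held 44.1, 52.4 and 46.3 adjusted reads in DMSO and 44.9, 42.9 and 57.1 in pladienolide B (log2 fold change 0.012 ± 0.21, adjusted p = 0.97). The ratio of COL4A4 to COL4A3 reads went from 4.75, 3.49 and 5.8 to 1.96, 2.43 and 2.21, again without overlap. COL4A5, on the X chromosome, fell from 319.5, 275 and 296 to 230.3, 237 and 222 adjusted reads (log2 fold change -0.37 ± 0.096, adjusted p = 0.0047). COL4A6, whose start lies 344 bases from that of COL4A5, was under the limit with a mean of 12.5. Per kilobase of the canonical transcript, the level in DMSO was 1722 ± 37.1 for COL4A2 and 615 ± 9.51 for COL4A1 (mean ± SD, n = 3), against 45.5 ± 3.4 for COL4A5, 22.4 ± 4.48 for COL4A4 and 5.92 ± 0.532 for COL4A3. The order of these levels was the same in pladienolide B.

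Collagen VI forms beaded microfibrils around cells and next to basement membranes. COL6A2 (chr21:46098071-46132849, plus strand) fell 2.22-fold, from 5892, 5461 and 5761 adjusted reads in DMSO replicates 1 to 3 to 2470, 2802 and 2448 in pladienolide B replicates 1 to 3 (log2 fold change -1.15 ± 0.052, adjusted p = 4.9e-11). COL6A1, on the same strand of chromosome 21 with 93.0 kb between them, fell 1.77-fold, from 3315, 2876 and 3134 to 1710, 1913 and 1656 adjusted reads (log2 fold change -0.82 ± 0.06, adjusted p = 1.2e-08). Both genes were lower in every treated sample, and the ratio of COL6A2 to COL6A1 was lower too, at 1.44, 1.46 and 1.48 after 1.78, 1.9 and 1.84 in DMSO. COL6A3, the chain that completes the usual trimer, was nearly absent, with 5.52 to 27.9 adjusted reads in single samples. Its level per kilobase in DMSO was 0.981 ± 0.416, beside 740.0 ± 52.6 for COL6A1 and 1656 ± 64.2 for COL6A2.

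Fibrillar collagens build the fibres of the interstitial matrix. COL1A1 was abundant and fell by little, from 6659, 6902 and 6838 to 5602, 5782 and 6318 adjusted reads (log2 fold change -0.21 ± 0.046, adjusted p = 0.0014). COL1A2, its partner chain in type I collagen, held 21.6, 17.1 and 25.6 adjusted reads in DMSO and 81.5, 22.9 and 22.1 in pladienolide B (log2 fold change 0.69 ± 0.39, adjusted p = 0.17), and 1 sample, pladienolide B replicate 1, held most of the treated reads. Without that sample the log2 fold change of COL1A2 was 0.081. Replicate 1 of pladienolide B was also the highest library for COL3A1 (14.4 adjusted reads) and COL6A3 (27.9). Per kilobase, COL1A1 was at 1150 ± 21.3 in DMSO and COL1A2 at 4.24 ± 0.836. COL27A1, a fibrillar collagen of cartilage, was called lower by a small step (log2 fold change -0.23 ± 0.074, adjusted p = 0.018), although DMSO replicate 2 and pladienolide B replicate 2 overlapped (718 and 729.6 adjusted reads). That call was lost when DMSO replicate 1, DMSO replicate 3, pladienolide B replicate 1 or pladienolide B replicate 3 was left out, where the log2 fold change ran from -0.21 to -0.18. COL11A2 and COL5A2 did not pass.

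The fibril-associated collagens, which sit on the surface of fibres, and the collagens of anchoring and basement membrane zones mostly fell. COL12A1, the most abundant of them, fell 1.61-fold, from 10287, 9581 and 9926 to 6022, 6547 and 5918 adjusted reads (log2 fold change -0.69 ± 0.045, adjusted p = 3.4e-09). COL7A1, which forms the anchoring fibrils under epithelia, fell from 2709, 2270 and 2617 to 1391, 1757 and 1790 adjusted reads (log2 fold change -0.63 ± 0.082, adjusted p = 8.2e-06). COL18A1, a basement membrane collagen whose end is released as endostatin, fell from 1027, 1132 and 1042 to 662, 725 and 588 adjusted reads (log2 fold change -0.70 ± 0.074, adjusted p = 7.8e-07). In each of these genes all treated samples lay below all DMSO samples. COL9A2 and COL16A1 fell as well, with log2 fold changes of -0.58 and -0.50.

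A few collagens went the other way. COL8A1, a short-chain collagen of vessel walls and the cornea, rose 1.65-fold from a low level, from 33.9, 30.2 and 36.9 to 47.1, 61.8 and 61.1 adjusted reads (log2 fold change 0.73 ± 0.21, adjusted p = 0.01). COL13A1, a collagen held in the cell membrane at sites of adhesion, rose from 134, 150.2 and 132 to 233, 188 and 268 adjusted reads (log2 fold change 0.71 ± 0.13, adjusted p = 3e-04). COL9A3 rose from 154, 162 and 145 to 204, 186 and 258 adjusted reads (log2 fold change 0.47 ± 0.13, adjusted p = 0.0056), opposite to COL9A2, another chain of collagen IX. COL9A1, the remaining chain of collagen IX, was nearly absent, with at most 3.01 adjusted reads in single samples. For COL8A1, COL13A1 and COL9A3 the lowest treated sample was above the highest DMSO sample. The other transmembrane collagens read did not pass: COL25A1 (log2 fold change 0.18 ± 0.12, adjusted p = 0.22) and COL17A1 of the hemidesmosome (log2 fold change -0.029 ± 0.17, adjusted p = 0.9).

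**Figure D2:**
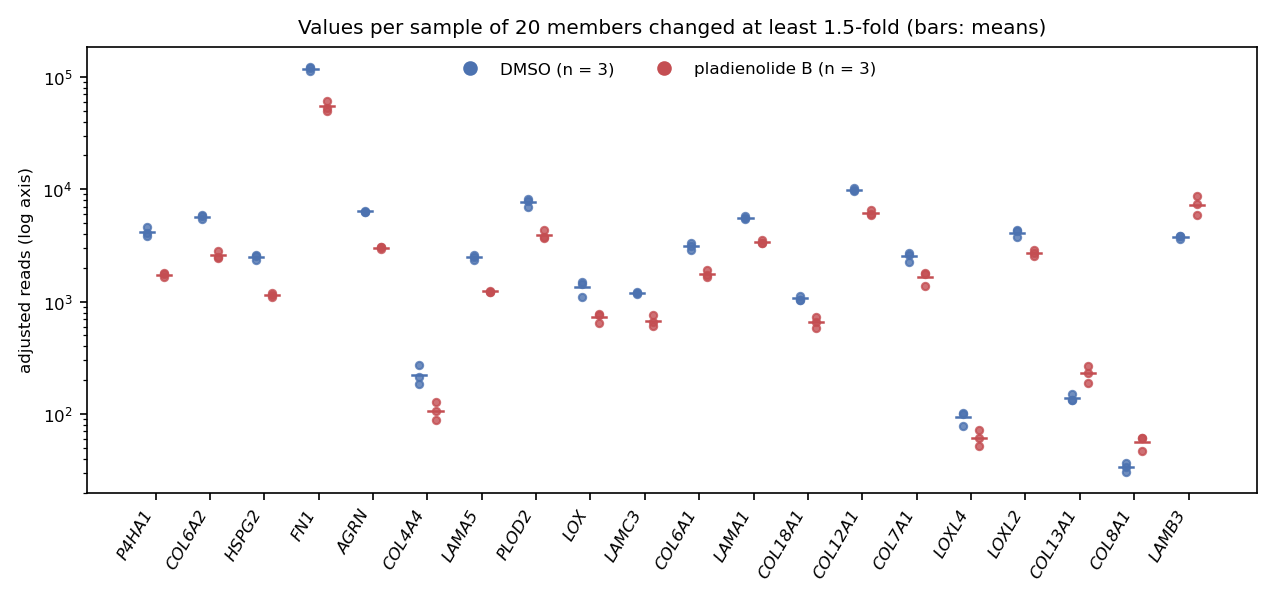
Adjusted reads in each of the 6 samples (log axis; blue, DMSO; red, pladienolide B; bars, group means) for 20 of the 21 members called with a change of at least 1.5-fold, ordered by fold change. The 17 members on the left were lower in all treated samples and the last 3, COL13A1, COL8A1 and LAMB3, were higher in all of them.

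Among the laminins, both abundant alpha chains fell. LAMA5 (chr20:62309060-62367318), the alpha chain of most adult epithelial basement membranes, fell 2.01-fold, from 2482, 2360 and 2611 adjusted reads in DMSO replicates 1 to 3 to 1216, 1255 and 1226 in pladienolide B replicates 1 to 3 (log2 fold change -1.01 ± 0.051, adjusted p = 1.3e-10). LAMA1, an alpha chain of embryonic basement membranes, fell from 5575, 5429 and 5788 to 3308, 3339 and 3538 adjusted reads (log2 fold change -0.72 ± 0.044, adjusted p = 1.3e-09). In neither gene did the groups come near each other. LAMA3 (101, 62.5 and 78.4 adjusted reads in DMSO and 107, 99.4 and 101 in pladienolide B) and LAMA2 (60.5, 55.4 and 38.5 adjusted reads in DMSO and 40.6, 26 and 51.1 in pladienolide B) were low and did not pass (adjusted p = 0.094 and 0.21). LAMA3 passed without DMSO replicate 1 (log2 fold change 0.54). LAMA4, the alpha chain of vessels, was under the limit of the mean but passed the filter through its treated samples: it read 3.73, 6.04 and 4.72 adjusted reads in DMSO and 19.8, 22.4 and 22.1 in pladienolide B (log2 fold change 1.96 ± 0.39, adjusted p = 0.00055), so its call has to be seen with that selection.

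LAMB3 had the largest rise of the 49 members. It lies at chr1:209614870-209652467 on the minus strand of hg38 and encodes the beta chain of the laminin that anchors epithelia through hemidesmosomes. It rose 1.93-fold, from 3806, 3586 and 3852 adjusted reads in DMSO replicates 1 to 3 to 7398, 8637 and 5881 in pladienolide B replicates 1 to 3 (log2 fold change 0.95 ± 0.089, adjusted p = 2.1e-07), and the lowest treated sample exceeded the highest DMSO sample. LAMB2, the beta chain of kidney and synaptic basement membranes, fell from 4720, 4498 and 4581 to 3025, 3180 and 3245 adjusted reads (log2 fold change -0.55 ± 0.043, adjusted p = 3.1e-08). LAMB1, the common beta chain, fell from 3351, 3357 and 3431 to 2450, 2347 and 2643 adjusted reads (log2 fold change -0.45 ± 0.048, adjusted p = 9.9e-07).

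LAMC1, the common gamma chain, held 8803, 8514 and 8806 adjusted reads in DMSO and 8315, 8205 and 7978 in pladienolide B (log2 fold change -0.093 ± 0.039, adjusted p = 0.059). The treated samples were all below DMSO for LAMC1, but the step was small and passed only without DMSO replicate 2 (adjusted p = 0.0091). LAMC3, a gamma chain of a few tissues, fell 1.77-fold, from 1182, 1230 and 1179 to 610.2, 665 and 755 adjusted reads (log2 fold change -0.83 ± 0.071, adjusted p = 7.5e-08), and its treated samples lay far below those in DMSO.

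Per kilobase of transcript, LAMB3 stood at 934 ± 35.4 in DMSO and at 1820 ± 344 in pladienolide B. LAMA3, the alpha chain found with LAMB3, was at 7.58 ± 1.82 and 9.63 ± 0.389 per kilobase. LAMB2 went from 808 ± 19.7 to 553 ± 19.9 per kilobase and LAMB1 from 598 ± 7.89 to 439 ± 26.5, so that LAMB3 had the highest level of the beta chains in both groups. LAMA1 had the highest level per kilobase of the alpha chains in both groups, with 580.0 ± 18.7 in DMSO and 352 ± 12.9 in pladienolide B.

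**Figure D3:**
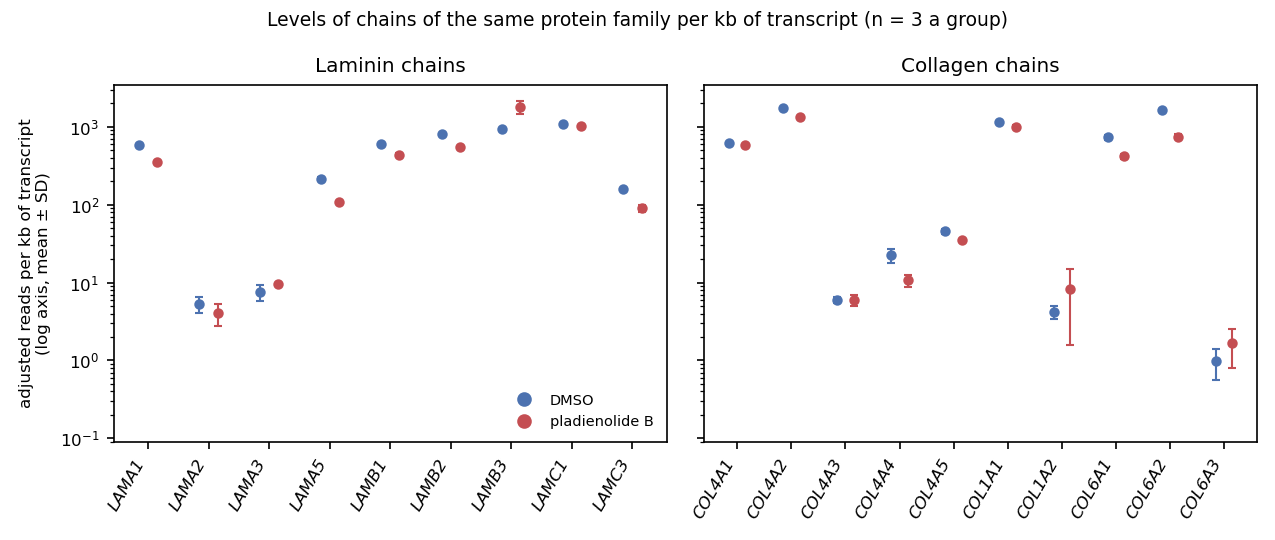
Adjusted reads per kilobase of the canonical transcript (log axis, mean ± SD, n = 3 a group; blue, DMSO; red, pladienolide B) for 9 laminin chains (left) and 10 collagen chains (right). The chains LAMA2, LAMA3, COL1A2, COL4A3 and COL6A3 stay below 10 per kilobase in both groups. LAMB1, LAMB2, LAMB3, LAMC1, COL1A1, COL4A1, COL4A2, COL6A1 and COL6A2 lie at 419 or more in both, and the other chains lie between or cross that level.

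The proteoglycans that join the networks fell together. AGRN (chr1:1020102-1056119), which encodes agrin, a binder of laminin and of dystroglycan, fell 2.11-fold, from 6312, 6408 and 6333 adjusted reads in DMSO replicates 1 to 3 to 2933, 3058 and 3056 in pladienolide B replicates 1 to 3 (log2 fold change -1.07 ± 0.04, adjusted p = 6.4e-12). HSPG2 (chr1:21822244-21937310), which encodes perlecan, fell 2.17-fold, from 2533, 2343 and 2613 to 1107, 1148 and 1196 adjusted reads (log2 fold change -1.12 ± 0.054, adjusted p = 8.1e-11). In both genes the spread between samples was small beside the fall. NID1, which links laminin to collagen IV, fell from 928, 842 and 986 to 652, 661 and 666 adjusted reads (log2 fold change -0.47 ± 0.067, adjusted p = 1.9e-05), while its relative NID2 did not pass (log2 fold change -0.034 ± 0.099, adjusted p = 0.8).

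FN1 was by far the most abundant member. It encodes fibronectin, lies at chr2:215360862-215436167 on the minus strand, and fell 2.17-fold, from 121575, 113150 and 118990 adjusted reads in DMSO replicates 1 to 3 to 49232, 61257 and 53215 in pladienolide B replicates 1 to 3 (log2 fold change -1.12 ± 0.063, adjusted p = 4.9e-10). Per kilobase it went from 14053 ± 514 to 6504 ± 730.0 and was still the highest member. SPARC, a secreted binder of collagen, rose from 8486, 9124 and 8873 to 11932, 11612 and 12010 adjusted reads (log2 fold change 0.43 ± 0.04, adjusted p = 2.4e-07). All DMSO samples of SPARC were below all treated ones. SPARC reads per FN1 read were 0.0698, 0.0806 and 0.0746 in DMSO and 0.242, 0.19 and 0.226 after treatment, without overlap. Of the 4 ratios given here, that of SPARC to FN1 was chosen after its values had been seen. Each of the 4 gave an exact permutation p of 0.1, adjusted p 0.1 over the 4 pairs.

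**Figure D4:**
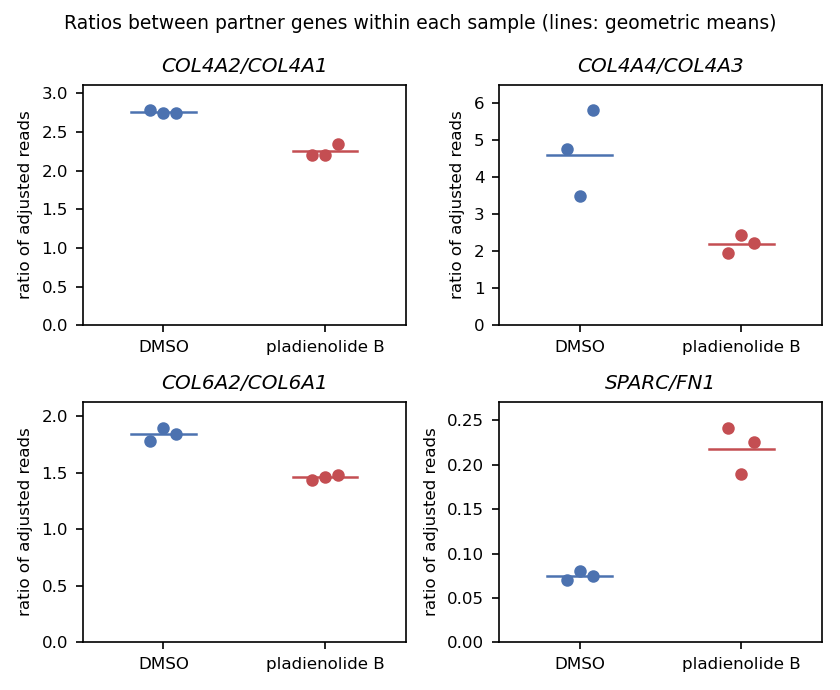
Ratio of adjusted reads between 2 genes in each sample (y axis, from 0; blue, DMSO; red, pladienolide B; lines, geometric means) for 4 pairs. No ratio overlaps between the groups, and of these SPARC/FN1 is higher in pladienolide B.

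The enzymes that modify collagen before it folds held the largest fall. P4HA1, a catalytic subunit of the prolyl 4-hydroxylase that stabilizes the collagen helix, fell 2.39-fold, from 4108, 3816 and 4576 adjusted reads in DMSO replicates 1 to 3 to 1801, 1752 and 1669 in pladienolide B replicates 1 to 3 (log2 fold change -1.26 ± 0.058, adjusted p = 5e-11). P4HA2, the other main subunit, fell from 1570, 1432 and 1599 to 1020, 1300 and 1068 adjusted reads (log2 fold change -0.45 ± 0.076, adjusted p = 0.00012), and P4HA3 was low and did not pass (log2 fold change -0.58 ± 0.24, adjusted p = 0.055). Among the lysyl hydroxylases, PLOD2, which acts on the ends of collagen chains and so prepares stable cross-links, fell 1.95-fold, from 7926, 6903 and 8131 to 3672, 4306 and 3773 adjusted reads (log2 fold change -0.97 ± 0.063, adjusted p = 2.9e-09). PLOD1, which acts on the helix, fell from 3690, 3444 and 3801 to 2684, 2734 and 2686 adjusted reads (log2 fold change -0.43 ± 0.046, adjusted p = 8.5e-07). PLOD3, which also adds sugars to hydroxylysine, was 2909, 2867 and 2922 adjusted reads in DMSO and 2702, 3006 and 2766 in pladienolide B (log2 fold change -0.039 ± 0.048, adjusted p = 0.53), with overlapping groups.

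The lysyl oxidases fell in 4 of 5 members, where 27.0% of the tested genes with a mean of 20 or more were called lower. LOX fell 1.84-fold, from 1445, 1090 and 1495 to 639.5, 763 and 774 adjusted reads (log2 fold change -0.88 ± 0.098, adjusted p = 1.5e-06). LOXL2, which cross-links collagen IV, fell from 4331, 3779 and 4238 to 2543, 2711 and 2892 adjusted reads (log2 fold change -0.60 ± 0.057, adjusted p = 2.2e-07). LOXL4 fell from 78.7, 101 and 103 to 61.5, 51.5 and 72.1 adjusted reads (log2 fold change -0.61 ± 0.18, adjusted p = 0.011), but its call was lost without DMSO replicate 3 (adjusted p = 0.051) or pladienolide B replicate 2 (adjusted p = 0.056). LOXL1 fell by less (log2 fold change -0.30 ± 0.058, adjusted p = 0.00036), and LOXL3 did not pass (log2 fold change -0.0072 ± 0.095, adjusted p = 0.96). DMSO replicate 2 was the lowest DMSO library for P4HA1, PLOD2, LOX and LOXL2. That was not particular to these enzymes. The same library was also lowest for other members, among them FN1, COL6A1 and LAMA5, and highest for SPARC and AGRN.

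P4HA1, PLOD2 and LOX are known targets of the hypoxia-inducible factors (HIF), whose binding sites often hold the letters ACGTG. Their upstream sequences are shown for that reason, with ACGTG, or CACGT where the match is on the other strand, in capitals. Other forms of the site were not searched for, and the other members were not surveyed as HIF targets. Each run holds the 250 bases before the RefSeq start, 5′ to 3′ on the minus strand of GRCh38.p14, at chr10:73096867-73097116 for P4HA1, chr3:146161185-146161434 for PLOD2 and chr5:122078260-122078509 for LOX.
P4HA1: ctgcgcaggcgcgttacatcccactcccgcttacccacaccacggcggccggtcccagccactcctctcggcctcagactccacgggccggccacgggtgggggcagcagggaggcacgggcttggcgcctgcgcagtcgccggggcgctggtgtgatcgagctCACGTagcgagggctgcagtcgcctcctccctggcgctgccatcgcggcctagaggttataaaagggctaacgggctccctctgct
PLOD2: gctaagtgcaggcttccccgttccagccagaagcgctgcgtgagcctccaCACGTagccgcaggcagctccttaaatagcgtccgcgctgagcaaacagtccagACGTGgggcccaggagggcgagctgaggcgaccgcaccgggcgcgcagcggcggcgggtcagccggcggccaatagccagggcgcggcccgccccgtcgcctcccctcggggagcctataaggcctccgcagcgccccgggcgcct
LOX: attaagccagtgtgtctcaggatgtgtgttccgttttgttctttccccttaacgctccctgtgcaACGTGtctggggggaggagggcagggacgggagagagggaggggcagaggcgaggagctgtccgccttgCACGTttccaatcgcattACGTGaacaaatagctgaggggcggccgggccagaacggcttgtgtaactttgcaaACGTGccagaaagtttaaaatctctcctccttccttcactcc

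P4HA1 held 1 match, PLOD2 2 and LOX 4. In the RefSeq windows of 300 bases, which end 50 bases after the start and were given for 37 of the 49 members, the letters were found in 5 members on either strand: LOX, PLOD2, P4HA1, COL12A1 and COL4A3. None of these matches was part of CACGTG. This is 13.5% of the members, 4 of the 23 called lower (17.4%) and 1 of the other 14 (7.14%), whereas 3017 of 11386 windows of genes with a mean of 20 or more held them (26.5%). The other collagen enzymes with a window, P4HA2, PLOD1, PLOD3, LOXL1, LOXL3 and LOXL4, held no match. Of these, P4HA2, PLOD1, LOXL1 and LOXL4 were called lower. The match is a description of the sequence and does not show that a factor binds there.

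HIF target genes that are no members moved with P4HA1, PLOD2 and LOX. Of 20 listed, 19 were tested, 17 were lower (89.5%), none was higher, and the other 2, EGLN3 and STC2, did not pass. Their median log2 fold change was -0.88. Of all tested genes, 25.2% were lower and 22.4% higher. Falls of such genes were known when the list was written, so the list is no independent evidence of its direction. BNIP3, of mitochondrial turnover, fell from 8978, 7838 and 9618 to 2560, 2616 and 2787 adjusted reads (log2 fold change -1.73 ± 0.06, adjusted p = 3.5e-12). SLC2A1, a glucose transporter, fell from 4473, 3245 and 4364 to 1311, 1525 and 1521 adjusted reads (log2 fold change -1.46 ± 0.091, adjusted p = 1.7e-09). ANKRD37 fell too (log2 fold change -1.28 ± 0.12, adjusted p = 1.5e-07). The list summed to 115691 to 140291 adjusted reads in DMSO, lowest in replicate 2, and to 72109 to 74564 in pladienolide B. Its part in the fall of the matrix genes was not tested.

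The lists of genes that act next to the members are read against all tested genes, of which 22.4% were higher and 25.2% lower. Of 25 genes for procollagen folding and export, all tested, 6 were higher (24.0%) and 7 lower (28.0%), close to that background, with a median log2 fold change of 0.013. FKBP14, a foldase of the endoplasmic reticulum, fell from 792, 837 and 834 to 274, 337 and 315 adjusted reads (log2 fold change -1.41 ± 0.081, adjusted p = 7e-10), and P4HB, the partner of the P4HA subunits, fell by less (log2 fold change -0.43 ± 0.039, adjusted p = 1.1e-07). P3H2, which hydroxylates collagen IV, rose from 829.6, 791 and 804 to 1265, 1285 and 1218 adjusted reads (log2 fold change 0.64 ± 0.055, adjusted p = 9.3e-08). Of 18 genes for procollagen cleavage and fibril assembly, 12 were tested, 1 was higher (8.33%) and 5 lower (41.7%, median -0.20), among them PCOLCE, an enhancer of procollagen cleavage (log2 fold change -0.58 ± 0.09, adjusted p = 5e-05). Of 23 further basement membrane genes, 18 were tested, 3 were higher (16.7%) and 6 lower (33.3%, median -0.092), near the background. NPNT, an integrin ligand, fell from a low level (log2 fold change -1.54 ± 0.34, adjusted p = 0.0012), while TINAGL1, a basement membrane protein, rose (log2 fold change 0.84 ± 0.067, adjusted p = 3.4e-08).

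Of 28 elastic fibre and matricellular genes, 23 were tested, 11 were lower (47.8%) and 2 higher (8.70%, median -0.26), where the background was 25.2% and 22.4%. The 2 that rose were CCN1, the most abundant of the list, from 55690, 58161 and 53746 to 71562, 71942 and 68700 adjusted reads (log2 fold change 0.34 ± 0.044, adjusted p = 8.4e-06), and CCN2, from 3258, 3928 and 3319 to 5976, 5737 and 5310 adjusted reads (log2 fold change 0.70 ± 0.062, adjusted p = 1.1e-07), both matricellular proteins. The summed list was 101069 to 106389 adjusted reads in DMSO and after treatment 106126 to 106957, so the sum did not fall. MFAP5, of microfibrils, fell from 2963, 3301 and 2976 to 1286, 1287 and 1047 adjusted reads (log2 fold change -1.36 ± 0.07, adjusted p = 2e-10), and THBS3 and LTBP4 fell with log2 fold changes of -0.78 and -0.71. CCN2 and LTBP2 are held by this list and the next. Of 16 TGF-beta response genes, 15 were tested, 5 were higher (33.3%) and 6 lower (median -0.10), both above the background shares. ID3 rose (log2 fold change 1.15 ± 0.15, adjusted p = 7.6e-06), whereas BHLHE40 fell (log2 fold change -0.999 ± 0.059, adjusted p = 8.5e-10). Of 24 receptors for collagen and laminin, 21 were tested, 6 were higher (28.6%) and 4 lower (19.0%, median 0.048), near the background. ITGA2, the alpha chain of a collagen receptor, rose from 222, 214 and 189.7 to 431, 528 and 453 adjusted reads (log2 fold change 1.17 ± 0.1, adjusted p = 7e-08), and DDR2, a collagen-binding kinase, rose too (log2 fold change 0.61 ± 0.19, adjusted p = 0.013). ADGRG6, an adhesion receptor that binds collagen IV and laminin, fell (log2 fold change -0.61 ± 0.044, adjusted p = 9.6e-09).

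Of the 24 members under the limit, 19 did not pass the filter on low values. These were LAMB4 and collagen chains of several families, such as COL2A1, COL3A1, COL10A1, COL11A1, COL14A1 and COL15A1, with means from 0.67 to 7.21. The other 5 were COL8A2, COL6A3, LAMA4, COL23A1 and COL4A6, of which only LAMA4 passed the test. The members that did not pass the filter were not tested in the main fit, so nothing is said here of a difference in them.

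The members are long genes with many exons. In the canonical transcripts of GENCODE 44, the median of the 49 was 35 exons, 5612 exonic bases and a span of 64251 bases, against 9 exons, 3269 bases and 29806 bases over genes with a mean of 20 or more. Among the members, Spearman's rho between the log2 fold change and the exon number was -0.04, with the span 0.098, with the exonic length -0.16 and with the mean level -0.38, over 49 genes that share the same 6 libraries. COL8A1, which rose, has 4 exons, and COL7A1, which fell, has 119.

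Some members overlap genes of the other strand, and it is not stated whether reads were assigned by strand, so their reads cannot be told apart where they overlap. The largest of these are RTRAF beside NID2, TCFL5 beside COL9A3, HTRA2 beside LOXL3, RHBDD1 beside COL4A4 and SLC19A1 beside COL18A1, each with a mean above that of the member. RHBDD1 rose (log2 fold change 0.31, adjusted p = 0.005) where COL4A4 fell. SRFBP1, with a mean of 409 beside LOX, rose (0.34, adjusted p = 0.0017) where LOX fell. LDLRAD2, with a mean of 14.8% of that of HSPG2, fell as HSPG2 did (-1.07, adjusted p = 2e-07). FN1, SPARC, AGRN, LAMB3, COL6A1, COL6A2 and P4HA1 had no overlapping gene of the other strand above 0.1% of their own mean.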

How the data were processed

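RNA sequencing of 6 OVCAR8 samples was analysed, 3 given DMSO and 3 given pladienolide B, grouped by the titles of the samples. The methods state that reads were aligned to hg38 with hisat2 and that DESeq2 was used, whereas the submitters' processing notes list hg19, HISAT2, HTSeq 0.12.4 and DESeq2. Of 26990 symbols found in GENCODE 44, 99.97% had a position in the table that overlaps the one in hg38, and so had all 73 members, so positions are given in hg38. The gene models and the use of strand in counting are not given in the sources used here.

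The signal values that the authors deposited are reads per gene adjusted to a common library size, of the kind edgeR makes by quantile adjustment of counts (common dispersion 0.0027). Inverting that adjustment returned whole reads for 100% of the 231822 values, to within 1e-04 of the deposited value. A log2 fold change, a p-value and a q-value per gene, which the authors deposited from their own comparison, were not used.

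Since the values are not raw counts, limma 3.58.1 with a variance trend was fitted to log2(value + 1) over the 16178 genes that passed filterByExpr of edgeR 4.0.16 (minimum count 10, minimum total 15), in R 4.3.3, two-sided, with Benjamini-Hochberg adjustment over all of them. The pseudocount of 1 makes the fold changes of low genes smaller. Alternatives were no filter, each sample left out, a block for the replicate number, a pseudocount of 0.1, limma without the trend, and, on the recovered reads, edgeR's quasi-likelihood test and DESeq2 1.42.0. After seeing the data, edgeR with RLE factors or with library totals only was added. The scripts were tested on simulated data. Levels between genes are per kilobase of GENCODE's canonical transcript. Promoter sequences are from RefSeq (GRCh38.p14).

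The members and the lists were chosen with earlier results of these data known. Any member with a mean of 20 or more could be named. Values in every sample were given for members called with a change of at least 1.5-fold and for the collagen IV and abundant laminin chains. From each list, the 3 called genes with the largest change could be named. Genes named beyond this rule were chosen after their values were seen. Of the 49 members, 1 is counted but its own values are not reported here.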

Additional observations from a re-analysis of the deposited data

How the results depend on the processing

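Over the 14 alternatives, the counts stayed within 1.5 times of those reported: 28 to 31 members were lower, 5 or 6 higher, 18 to 21 changed at least 1.5-fold, the median log2 fold change of the members was -0.453 to -0.407, and 6381 to 7855 of all genes were called. Of 686 values of single members under an alternative, 657 kept their direction and their side of the threshold, 9 lost and 6 gained a call, and 14 changed sign. The sign changed only in members that were not called. Under DESeq2, edgeR with RLE factors and edgeR with library totals only, LOXL3 was at 0.00125, 0.00141 and 0.0269, and NID2 at 0.00881 under library totals only. When a sample was left out, the log2 fold change ran from -0.112 to 0.0908 for COL4A3, from -0.121 to 0.0715 for NID2, from -0.0614 to 0.0623 for LOXL3 and from -0.148 to 0.144 for COL17A1. Calls of named genes were lost for COL27A1 and LOXL4, as given with these genes, and for COL27A1 also by limma without the trend (adjusted p = 0.085). Calls were gained by LAMA3 without DMSO replicate 1 (0.023), COL5A2 (0.028) and LAMC1 (0.0091) without DMSO replicate 2, P4HA3 without pladienolide B replicate 1 (0.033), COL11A2 without pladienolide B replicate 2 (0.032) and COL25A1 without the trend (0.041), each an adjusted p. The cause was not tested. The values gave no sign that the replicate numbers paired the samples. The correlation of same-numbered deviations was -0.018, -0.017 and 0.0026, and that of the others ran from -0.035 to 0.048. With the replicate number as a block, 30 members were lower, 5 higher and 21 changed at least 1.5-fold, with a median of -0.448, and 7349 genes were called in all, against 7695 without it. Library totals without further scaling raised the share of higher calls among all genes from 47.0% to 54.0%. At this depth, 19 members did not pass the filter on low values and were not compared.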
